A study of Rattus norvegicus with 20 samples.

Results

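The genes described here encode the SR proteins, the heterogeneous nuclear ribonucleoproteins (hnRNPs) and the RNA-binding motif (RBM) proteins of the rat medial prefrontal cortex (mPFC), a frontal area involved in executive control. They were chosen by symbol alone, as every *Srsf*, *Hnrnp*, numbered *Rbm*, *Rbmx*-type or *Rbms*-type gene in the deposited matrix that reached a minimum of 5 reads in 10 or more of the 20 rats. Of 77 matching symbols, 70 passed, among 16605 genes that passed in all. They comprise 11 SR genes, 18 hnRNP genes and 41 RBM genes, the last made up of 34 numbered *Rbm* genes, 4 of the *Rbmx* type and 3 of the *Rbms* type. Male Sprague-Dawley rats were injected intraperitoneally with LSD at 0.16 mg/kg or with saline, once every other day over 90 days, and the tissue was taken after the drug had been discontinued for 3 weeks according to the series description. The rats were 6 to 8 weeks old when treatment began and lived in single cages throughout, as the sample labels have it. The study's methods state another age and another interval before dissection, and both sources give the same entries for both groups. The 10 LSD-treated rats and the 10 controls gave 1 library each, from poly(A)-selected RNA (4 µg of total RNA), so that each value is the reads of 1 animal's bulk tissue. In bulk tissue, fewer cells of a type and less RNA per cell cannot be told apart.

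SR proteins carry RNA recognition motifs and a domain rich in arginine and serine, bind exonic enhancers and, as a rule, promote inclusion of the exons they bind. hnRNPs coat nascent transcripts and often silence splice sites, and many of them also act in export, stability or translation of mRNA. The RBM genes share only the RNA-binding motif in their names and range from spliceosome components to factors of muscle, germ cells or the cold response. Transcripts of many of these regulators carry poison exons, through which the proteins limit their own expression by nonsense-mediated decay. Counts per gene do not separate such isoforms, and exon use was not analysed here.

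Libraries held 16346629 to 25552681 reads on genes (median 20271086) in LSD-treated rats and 11098076 to 24201351 (median 16815424) in controls. LSD libraries ranked higher in size, although the ranges overlapped (exact two-sided rank sum test, p = 0.01469, n = 10 per group). Levels are therefore given as RPM, read counts scaled to the reads on genes of each library after TMM normalisation. Markers of excitatory neurons were present at summed levels of 3211 to 4270 RPM in LSD-treated rats and 3318 to 5008 RPM in controls, and none of the 4 passed the test. The 5 markers of the striatum, a neighbouring tissue, were each lower in LSD-treated rats by the estimate, the log2 fold changes spanning -1.06 to -0.27 and the adjusted p-values 0.0671 to 0.0872 (quasi-likelihood test of edgeR, Benjamini-Hochberg). Their summed level was 100.5 to 206.7 RPM against 115.7 to 316.8 RPM, and none was at 0 in any rat. The 5 oligodendrocyte markers were also lower by the estimate, at 1980 to 5328 RPM against 1937 to 6941 RPM in sum, and none passed the test. Of 6 markers of inhibitory neurons, *Gad2* and *Vip* were up-regulated (log2 fold changes 0.23 and 0.27, adjusted p = 0.0369 and 0.0486 by edgeR) and *Slc32a1* and *Sst* were down-regulated (-0.34 and -0.28, adjusted p = 0.018 and 0.0222), with a summed level of 657.8 to 817.3 RPM in LSD-treated rats and 698.0 to 935.7 RPM in controls. Of 3 blood markers, *Hbb* was down-regulated (log2 fold change -0.50, adjusted p = 0.0434 by edgeR). The part of these cells and tissues in the results that follow was not tested.

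To learn whether expression of the splicing regulators differed after chronic LSD, each gene was tested within a single fit of all 16605 genes. Of the 70 regulators, 5 were up-regulated and 2 were down-regulated in LSD-treated rats at a Benjamini-Hochberg adjusted p under 0.05 (edgeR, quasi-likelihood test). *Srsf5*, *Hnrnpu*, *Hnrnpul2*, *Rbm3* and *Rbm27* were up-regulated, with log2 fold changes between 0.18 and 0.37, and *Rbm38* and *Rbm42* were down-regulated, by -0.47 and -0.15. The share past the threshold was 10%, beside 15.0% of all genes. This order held in some of the alternative fits given below and turned in others, such as DESeq2. By direction, 7.14% of the regulators and 6.48% of all genes were up-regulated, and 2.86% and 8.54% were down-regulated. Under scaling by total counts the regulators counted 10 up and 1 down, and the balance over all genes turned from 1076 up and 1418 down to 1504 up and 858 down.

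Counted over all 70, including the 7 past the threshold, more estimates were above 0 than below. The estimate was above 0 for 53 of 70 regulators (75.7%) and for 50.4% of all genes, and the median log2 fold change was 0.08 against 0.002 over all genes. This lean was not seen with library size as a covariate, where 36 of 70 were above 0 and the median was 0.003. With reads drawn down to equal depth, 50 of 69 were above 0 and the median was 0.10. At an unadjusted p under 0.05, 27 regulators (38.6%) passed, 22 of them higher and 5 lower in LSD-treated rats, beside a background of 30.8%. By family, the estimate was above 0 for 9 of 11 SR genes (median 0.11), 16 of 18 hnRNP genes (median 0.13) and 28 of 41 RBM genes (median 0.05). The 3 *Rbms*-type genes, 1 of them above 0, had a median of -0.04. All log2 fold changes of the 70 genes lay between -0.47 and 0.37, whereas those of all genes spanned -2.52 to 1.43.

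**Figure D1:**
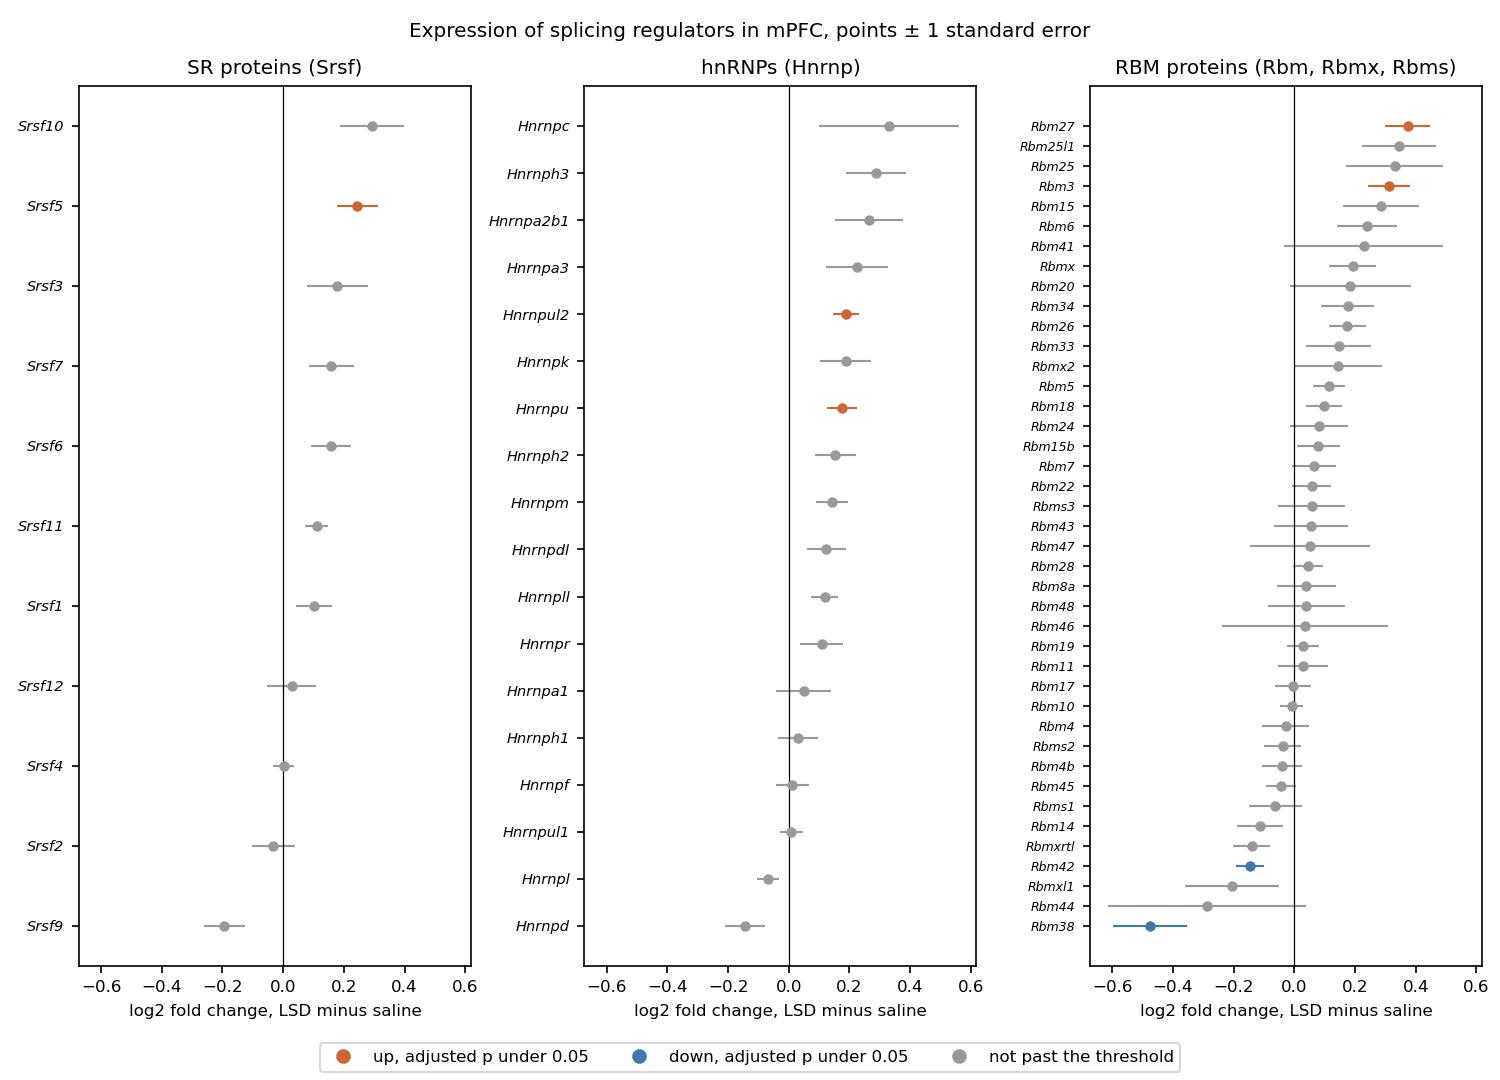
Log2 fold change (LSD minus saline, x axis) with 1 standard error for each of the 70 regulators, in a panel per family and ordered by fold change. The 5 genes in orange (*Srsf5*, *Hnrnpul2*, *Hnrnpu*, *Rbm27*, *Rbm3*) and the 2 in blue (*Rbm42*, *Rbm38*) are those past the threshold, and 53 of 70 points lie right of 0.

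The promoters of the 7 genes past the threshold are shown first, since these are the DNA segments from which the up- and down-regulated transcripts start. They were read from RefSeq on the rat build GRCr8, from 250 bases before to 50 bases after the gene's start, 5′ to 3′ on the strand of the gene. Capitals mark matches, on either strand, to the GC box GGGCGG, the ETS core CCGGAAG, the cAMP response element core TGACGT and the TATA box TATAAA. None of these strings contains another, and neighbouring GC boxes may overlap.
Srsf5 promoter, chr6:106336506-106336805, plus strand: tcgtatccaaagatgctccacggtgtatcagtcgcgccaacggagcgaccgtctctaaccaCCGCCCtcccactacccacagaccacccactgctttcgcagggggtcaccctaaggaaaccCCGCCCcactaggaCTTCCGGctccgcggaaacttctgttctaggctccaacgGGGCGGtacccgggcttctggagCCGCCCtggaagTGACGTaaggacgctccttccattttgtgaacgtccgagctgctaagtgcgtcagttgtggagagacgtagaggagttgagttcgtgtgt
Hnrnpu promoter, chr13:92618531-92618830, minus strand: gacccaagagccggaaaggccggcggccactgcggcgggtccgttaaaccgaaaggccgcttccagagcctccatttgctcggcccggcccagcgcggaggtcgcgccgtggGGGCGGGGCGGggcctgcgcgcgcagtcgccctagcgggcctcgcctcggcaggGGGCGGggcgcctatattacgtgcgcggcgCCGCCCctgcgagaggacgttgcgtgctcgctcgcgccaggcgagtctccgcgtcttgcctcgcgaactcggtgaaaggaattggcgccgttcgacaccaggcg
Hnrnpul2 promoter, chr1:215142500-215142799, plus strand: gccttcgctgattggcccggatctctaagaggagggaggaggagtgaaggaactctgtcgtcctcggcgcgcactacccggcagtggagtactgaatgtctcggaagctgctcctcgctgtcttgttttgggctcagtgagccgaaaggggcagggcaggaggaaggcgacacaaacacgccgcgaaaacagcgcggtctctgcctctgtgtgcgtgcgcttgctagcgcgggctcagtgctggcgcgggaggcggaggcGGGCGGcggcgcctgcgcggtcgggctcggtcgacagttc
Rbm3 promoter, chrX:17020655-17020954, plus strand: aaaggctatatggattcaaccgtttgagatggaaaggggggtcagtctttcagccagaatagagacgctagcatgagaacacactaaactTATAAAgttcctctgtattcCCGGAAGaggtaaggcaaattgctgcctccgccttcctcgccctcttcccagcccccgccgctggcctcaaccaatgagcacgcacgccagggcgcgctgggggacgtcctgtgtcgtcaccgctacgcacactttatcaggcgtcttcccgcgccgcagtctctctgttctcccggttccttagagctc
Rbm27 promoter, chr18:34524280-34524579, plus strand: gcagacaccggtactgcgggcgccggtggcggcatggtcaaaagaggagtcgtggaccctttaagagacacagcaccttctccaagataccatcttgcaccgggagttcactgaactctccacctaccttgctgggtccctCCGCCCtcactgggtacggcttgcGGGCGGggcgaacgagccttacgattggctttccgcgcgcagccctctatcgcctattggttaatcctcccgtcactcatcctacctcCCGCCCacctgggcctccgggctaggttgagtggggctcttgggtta
Rbm38 promoter, chr3:182219669-182219968, plus strand: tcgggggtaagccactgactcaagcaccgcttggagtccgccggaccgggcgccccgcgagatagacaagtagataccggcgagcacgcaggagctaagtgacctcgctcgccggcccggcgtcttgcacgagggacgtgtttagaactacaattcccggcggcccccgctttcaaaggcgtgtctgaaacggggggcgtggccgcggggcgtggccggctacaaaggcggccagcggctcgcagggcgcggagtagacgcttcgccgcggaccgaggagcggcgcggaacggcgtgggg
Rbm42 promoter, chr1:95035931-95036230, minus strand: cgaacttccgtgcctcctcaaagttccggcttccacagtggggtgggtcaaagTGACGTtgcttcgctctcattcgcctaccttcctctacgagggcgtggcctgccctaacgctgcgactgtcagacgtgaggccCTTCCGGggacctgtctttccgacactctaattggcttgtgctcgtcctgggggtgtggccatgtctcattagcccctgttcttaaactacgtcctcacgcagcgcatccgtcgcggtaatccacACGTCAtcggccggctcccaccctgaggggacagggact
Matches to the GC box numbered 4 for *Srsf5*, 4 for *Hnrnpu*, 3 for *Rbm27* and 1 for *Hnrnpul2*. *Rbm3* held a TATA box and an ETS core and no GC box. Of the down-regulated genes, *Rbm38* held none of these strings, whereas *Rbm42* held TGACGT at 2 places and 1 ETS core. *Srsf5* also held TGACGT and an ETS core.

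A promoter was listed for 62 of the 69 distinct RefSeq genes among the regulators. Their promoters were rich in CpG, with a median of 25 CpG in 300 bases against 7 over all 27457 promoters and 12 over the 19005 of protein-coding genes. The SR genes had a median of 33, the hnRNP genes 26 and the RBM genes 22. The core TGACGT was found in 14 regulators (22.6%), 5 of them SR genes (*Srsf1*, *Srsf3*, *Srsf5*, *Srsf6* and *Srsf11*), compared with 8.22% of all and 8.99% of protein-coding promoters. The E-box CACGTG was found in 14.5% of regulators (6.65% of all promoters), the ETS core in 19.4% (9.22%), the GC box in 58.1% (34.9%) and the TATA box in 11.3% (14.3%). Of protein-coding promoters, 7.27% held the E-box, 11.2% the ETS core, 43.1% the GC box and 13.1% the TATA box. The string CTCGCGAG, which equals its own reverse complement as CACGTG does, was found in 4 regulators, namely *Srsf4*, *Srsf10*, *Rbm26* and *Rbm44*. This was 6.45%, against 0.827% of all and 1.12% of protein-coding promoters. Each of these strings except the TATA box holds a CpG, and neither background was chosen for like CpG content. The part of CpG content in these shares was not tested. A match describes letters only and was not tied to any factor.

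Among the SR genes, *Srsf5* alone passed the test. It encodes a canonical SR protein that binds exonic enhancers. Its level was 77.2 RPM in the lowest, 89.4 in the median and 103.2 in the highest LSD-treated rat, and 68.6, 74.8 and 100.8 RPM in controls. The groups overlapped, and control rat 2, at 100.8 RPM, stood apart from the next control at 81.6, which itself exceeded the lowest LSD-treated rat. All 10 LSD-treated rats lay above the control median. The log2 fold change was 0.24 (SE 0.068, adjusted p = 0.0205 by edgeR), and with library size as a covariate it was 0.10 (adjusted p = 0.243), which ended the call.

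The other SR genes fell short of the threshold, several of them narrowly. *Srsf11*, which acts with the neuronal regulator *Srrm4* on microexons, was estimated at 0.11 on the log2 scale (adjusted p = 0.057 by edgeR). Its controls lay within 63.8 to 67.2 RPM, whereas LSD-treated rats ranged from 61.8 to 78.3 RPM, and 9 of 10 exceeded the control median. *Srsf10*, whose dephosphorylated protein represses splicing in mitosis and heat shock, ranged from 20.1 to 33.3 RPM in LSD-treated rats and from 16.4 to 29.3 RPM in controls (log2 fold change 0.29, adjusted p = 0.0587 by edgeR). *Srsf9* had the lowest estimate of the family, at -0.19 on the log2 scale (adjusted p = 0.0516 by edgeR), and all 10 LSD-treated rats lay below the control median. Estimates for *Srsf3* and *Srsf7*, which link splicing to mRNA export, were 0.18 and 0.16, with adjusted p = 0.237 and 0.149 by edgeR. For *Srsf1*, the founding member of the family, the estimate was 0.10 (adjusted p = 0.247 by edgeR). *Srsf2* and *Srsf4* had estimates near 0, of -0.03 and 0.0015, and both changed sign with the processing. The estimates of *Srsf1* and *Srsf3* also changed sign, to -0.02 and -0.08, with library size as a covariate. In the same fit *Srsf10* was at 0.04 (adjusted p = 0.745 by edgeR) and *Srsf7* at 0.0028. *Srsf11* was at 0.11 and *Srsf9* at -0.14 there (adjusted p = 0.103 and 0.232 by edgeR).

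Of the hnRNP genes, *Hnrnpu* and *Hnrnpul2* passed the test. *Hnrnpu*, also known as scaffold attachment factor A, encodes a protein that binds both chromatin and RNA, and *Hnrnpul2* encodes a relative of it. *Hnrnpu* stood at 269.0, 305.7 and 338.0 RPM in the lowest, median and highest LSD-treated rat and at 241.7, 275.2 and 291.3 RPM in controls. All 10 controls lay below the LSD median, and 9 of 10 LSD-treated rats lay above the control median. Its log2 fold change was 0.18 (SE 0.048, adjusted p = 0.0196 by edgeR). *Hnrnpul2* stood at 146.2, 165.7 and 172.6 RPM in LSD-treated rats and at 135.1, 141.4 and 162.9 RPM in controls. Every LSD-treated rat exceeded the control median and every control fell below the LSD median, although the ranges overlapped. The log2 fold change was 0.19 (SE 0.042, adjusted p = 0.00852 by edgeR), and 0.14 with library size as a covariate (adjusted p = 0.0504, past the threshold no longer).

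The best-known hnRNPs did not pass the test. *Hnrnpa2b1*, which binds silencer elements and sorts RNA for transport, had a log2 fold change of 0.26 and an adjusted p of 0.112 by edgeR, and its level ranged from 77.0 to 126.3 RPM in LSD-treated rats and from 64.6 to 129.7 RPM in controls. *Hnrnpa1*, its close relative, was at 16.2 to 24.3 RPM and 14.9 to 24.0 RPM (log2 fold change 0.05, adjusted p = 0.762 by edgeR). *Hnrnpc*, which binds uridine tracts of nascent transcripts, had the largest estimate of the family, 0.33, with an SE of 0.23 and an adjusted p of 0.347 by edgeR, since both groups spread widely (3.73 to 12.2 RPM and 3.24 to 8.15 RPM). *Hnrnpk*, a poly(C)-binding protein, and *Hnrnph1*, which binds G tracts, had estimates of 0.19 and 0.03 (adjusted p = 0.133 and 0.798 by edgeR). *Hnrnpd* (AUF1), a regulator of AU-rich mRNAs, and *Hnrnpl*, which binds CA repeats, were the 2 members with estimates below 0, at -0.14 and -0.07 (adjusted p = 0.134 and 0.215 by edgeR). For *Hnrnpl* all 10 LSD-treated rats lay below the control median of 258.4 RPM, with a highest value of 255.2 RPM. With library size as a covariate the estimates of *Hnrnpa2b1*, *Hnrnpa1*, *Hnrnpk* and *Hnrnph1* changed sign, to -0.02, -0.13, -0.0067 and -0.12.

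The largest changes in both directions were found among the RBM genes. *Rbm27*, whose protein takes part in targeting polyadenylated nuclear RNA to the exosome, was up-regulated. It was at 27.0, 28.7 and 32.1 RPM in the lowest, median and highest LSD-treated rat and at 17.5, 22.7 and 26.8 RPM in controls. The lowest LSD-treated rat thus lay just above the highest control, and how many of all genes had such groups was not counted. The log2 fold change was 0.37 (SE 0.075, adjusted p = 0.00619 by edgeR). *Rbm26*, which encodes its partner in the same pathway, had an estimate of 0.18 with an adjusted p of 0.0513 by edgeR.

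*Rbm3* encodes a cold-inducible RNA-binding protein known for its role at synapses. It was at 36.3, 42.1 and 52.5 RPM in LSD-treated rats and at 27.9, 34.4 and 40.1 RPM in controls. Each LSD-treated rat exceeded the control median and each control was below the LSD median. The log2 fold change was 0.31 (SE 0.070, adjusted p = 0.00852 by edgeR), and 0.26 with library size as a covariate (adjusted p = 0.052, past the threshold no longer). For *Cirbp*, the other classical cold-inducible RNA-binding gene, the estimate was -0.07 (adjusted p = 0.381 by edgeR).

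*Rbm38*, a p53 target that acts on mRNA stability, was down-regulated. Its values were 5.99, 7.38 and 8.60 RPM in LSD-treated rats and 5.90, 10.1 and 14.2 RPM in controls. All LSD-treated rats lay below the control median, and a single control lay below the LSD median, where the lowest value of all was found. The log2 fold change was -0.47 (SE 0.12, adjusted p = 0.0144 by edgeR), and with library size as a covariate it was -0.22 (adjusted p = 0.212), which ended the call. *Rbm42*, whose product binds hnRNP K, was at 56.1, 60.0 and 62.8 RPM in LSD-treated rats and at 59.1, 64.2 and 79.5 RPM in controls (log2 fold change -0.15, SE 0.047, adjusted p = 0.0396 by edgeR). Again all LSD-treated rats fell below the control median, but the call was lost in 12 of the 20 fits that left out 1 rat and with library size as a covariate (adjusted p = 0.126).

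**Figure D2:**
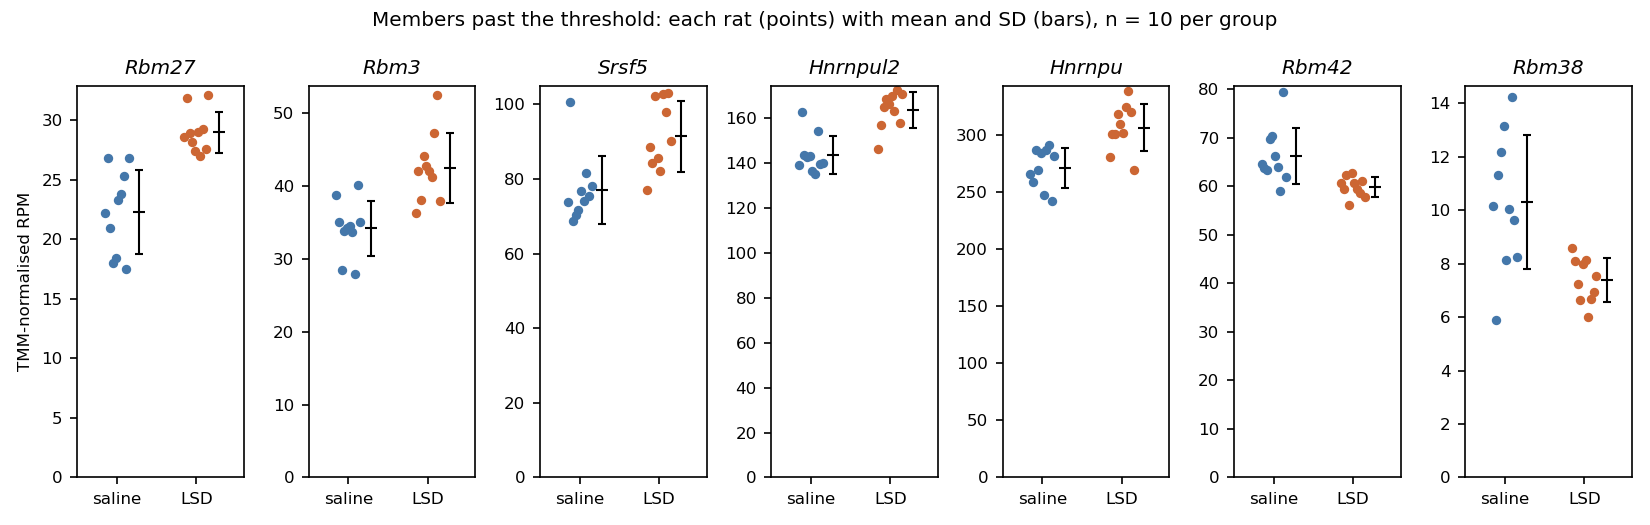
TMM-normalised RPM (y axis, from 0) of the 7 regulators past the threshold, with a point per rat and bars for the mean and SD of 10 rats per group. The groups of *Rbm27* come close without overlap (17.5 to 26.8 RPM in controls, 27.0 to 32.1 RPM after LSD), and the high control of *Srsf5*, at 100.8 RPM, is rat 2.

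Other well-studied RBM genes did not pass. *Rbm5* and *Rbm10*, related components of early spliceosomes, had estimates of 0.11 (adjusted p = 0.136 by edgeR) and -0.009 (adjusted p = 0.906), and the annotated span of *Rbm5* overlaps that of *Rbm6*. *Rbm25*, which works with the U1 snRNP, was at 7.65 to 12.5 RPM in LSD-treated rats and 4.40 to 10.8 RPM in controls (log2 fold change 0.33, adjusted p = 0.165 by edgeR). *Rbmx*, the X-linked gene of hnRNP G, had an estimate of 0.19 (adjusted p = 0.0941 by edgeR), and *Rbm33* one of 0.15 (adjusted p = 0.38). *Rbms1* and *Rbms3*, of the single-stranded nucleic acid-binding type, had estimates of -0.06 and 0.06 with adjusted p of 0.67 and 0.771 by edgeR. The sign of *Rbm10*, *Rbms1* and *Rbms3* changed with the processing. With library size as a covariate the estimates of *Rbm25* and *Rbmx* were 0.0023 and 0.03, and those of *Rbm5* and *Rbm33* were 0.11 and 0.32.

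Just inside the filter were *Rbm44*, with 1 to 13 reads per rat, *Rbm41*, with 3 to 34, and *Rbm46*, with 4 to 34, and no difference between the groups was detectable at this depth (adjusted p = 0.59, 0.595 and 0.948 by edgeR). *Rbm44* and *Rbm46* are known as germ cell genes. *Rbm44* had at least 5 reads in 6 rats of each group, *Rbm41* in 10 LSD-treated rats and 8 controls, and *Rbm46* in 10 and 9. The other 67 regulators had at least 10 reads in every rat. Of those outside the filter, *Rbm39* had 27 reads over all 20 rats and *Rbm12b* had 16, each with at least 5 reads in 1 rat. *Rbmxl2* (3 reads), *Srsf8* (2), *Hnrnpab* (2), *Rbm12* (0) and *Rbm31y* (0) had next to none. Whether such low counts reflect expression or the counting of reads was not tested. On GRCr8 the spans of *Rbm12*, *Rbm12b* and *Hnrnpab* overlap another gene (*Cpne1*, *Cibar1* and *Phykpl*), and that of *Rbm39* does not. The same holds for 26 of the 70 regulators that passed, but for none of the 7 past the threshold. Whether counting used the strand is not given in the sources used here, so values of overlapping genes and of near-identical copies (*Rbm4* and *Rbm4b*, *Rbm25* and *Rbm25l1*, or *Rbmx*, *Rbmxl1* and *Rbmxrtl*) are uncertain.

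Levels of many regulators followed library size within each group. Pearson's r between the log2 level and log2 reads on genes, over 20 rats with each group centred on its mean, exceeded 0.5 for 26 of the 70 regulators (37.1%) and for 20% of all genes. It was below -0.5 for 8 regulators (11.4%) and for 17.9% of all genes. The median r was 0.33 over the regulators and 0.03 over all genes, and it reached 0.59 in the SR family, 0.48 in the hnRNP family and 0.24 in the RBM family. Of the 26, 23 exceeded 0.5 in the LSD-treated rats and in the controls taken separately. These correlations are descriptive, and every point of a gene shares its library size with the same rat's points of the other genes.

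By Pearson's r over both groups, the closest relation was that of *Hnrnpa2b1*, with r = 0.906 (Spearman's rho 0.899, n = 20), or 0.966 within LSD-treated rats and 0.879 within controls. In the LSD group it ran from 77.0 RPM in rat 1, the smallest library, to 126.3 RPM in rat 7, the largest. Among controls, rat 2 had the largest library and, at 129.7 RPM, the highest level. *Srsf3* gave r = 0.883 (rho 0.944), *Rbm6*, a paralogue of *Rbm5*, 0.885 (rho 0.940) and *Hnrnpa3* 0.847 (rho 0.901). Without the 2 rats farthest from the median library size on the log2 scale (controls 5 and 3), r was 0.958 for *Hnrnpa2b1*, 0.951 for *Srsf3*, 0.918 for *Rbm6* and 0.932 for *Hnrnpa3* (n = 18). In the opposite direction, *Rbm14*, which encodes a transcriptional coactivator of paraspeckles, gave r = -0.803 (rho -0.839), *Rbm38* -0.724 (rho -0.734) and *Srsf2* -0.674 (rho -0.695). Without the same 2 rats these were -0.834, -0.668 and -0.726.

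**Figure D3:**
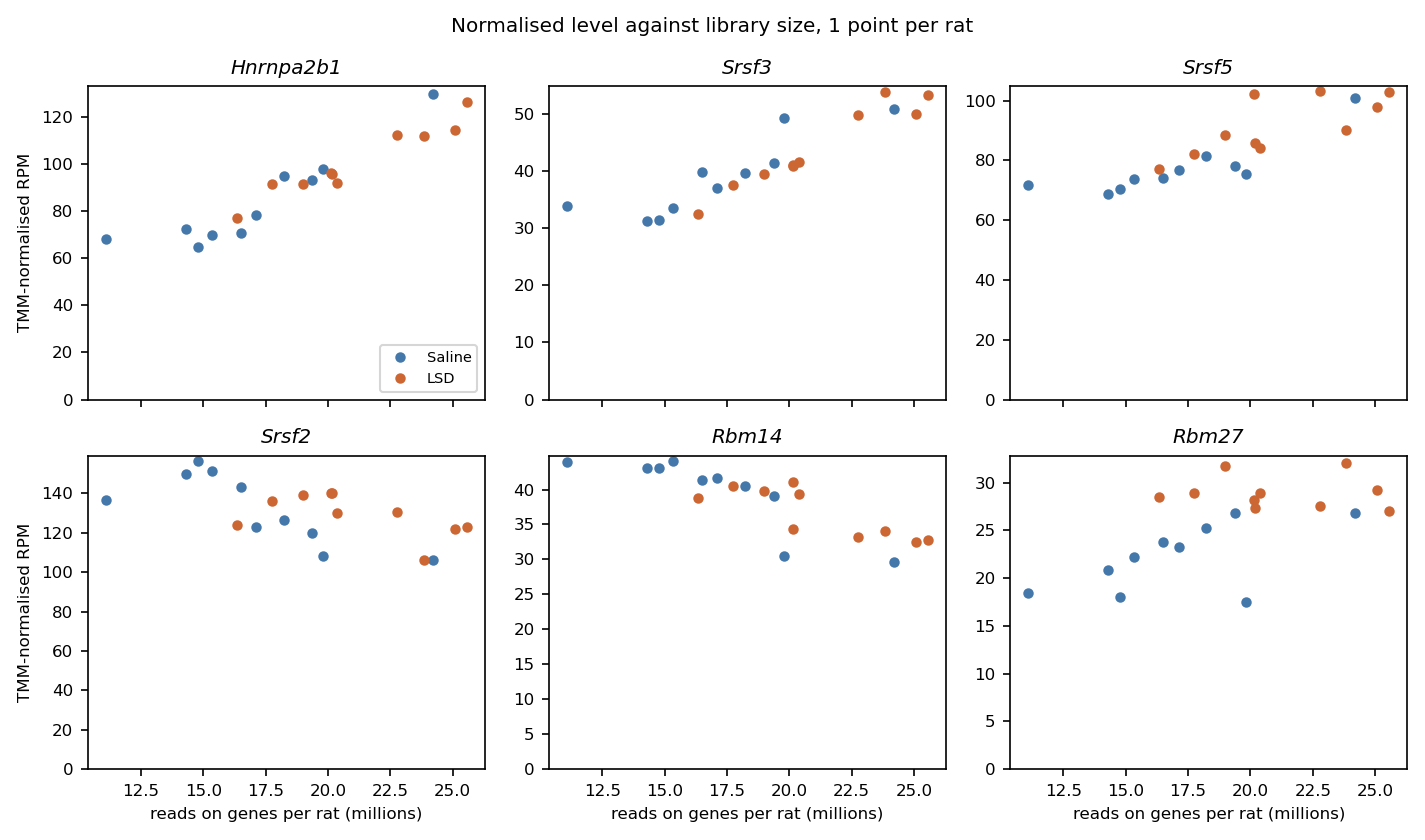
TMM-normalised RPM (y axis, from 0) against reads on genes per rat (x axis), with a point per rat, for 6 regulators. *Hnrnpa2b1*, *Srsf3* and *Srsf5* climb with library size (r = 0.906, 0.883 and 0.777 within groups), *Srsf2* and *Rbm14* decline (-0.674 and -0.803), and *Rbm27* relates less closely (0.438).

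Because LSD libraries were larger, the comparison was fitted again with log2 library size as a covariate, an alternative chosen after the data were seen. *Rbm27* (log2 fold change 0.29, adjusted p = 0.0379) and *Hnrnpu* (0.18, adjusted p = 0.0498) then remained past the threshold in edgeR. The other 5 did not, and of these *Hnrnpul2*, *Rbm3* and *Rbm42* moved less than *Srsf5* and *Rbm38* relative to their own estimates. Over all genes, 3.22% were up-regulated and 3.85% down-regulated in this fit. The fit has a single slope on library size for both groups. Within LSD-treated rats and within controls, r with library size was 0.447 and -0.427 for *Hnrnpu*, and -0.064 and 0.585 for *Rbm27*. Library size and group are partly confounded in these rats, so their shares in the differences cannot be told apart.

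**Figure D4:**
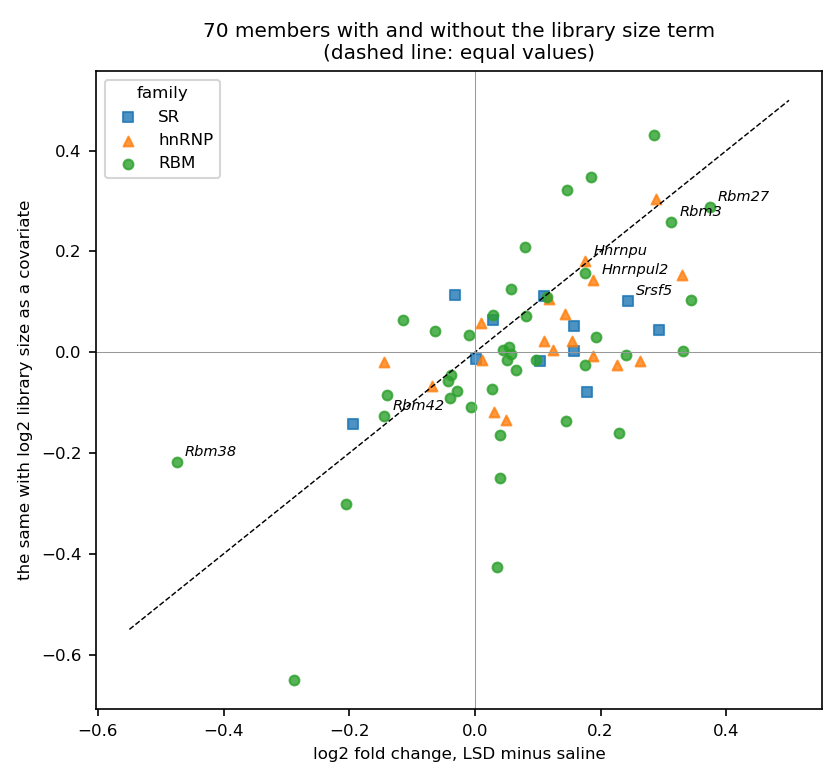
Log2 fold change of the 70 regulators without (x axis) and with (y axis) log2 library size as a covariate, by family, and the dashed line marks equal values. *Hnrnpu* lies on the line (0.18 in both), *Rbm27* near it (0.37 and 0.29), and *Srsf5* (0.24 and 0.10) and *Rbm38* (-0.47 and -0.22) lie closer to 0 on the y axis.

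Reads were also drawn down to equal depth in every rat, likewise an alternative added later. Of 69 regulators tested there, 6 were up-regulated and 1 was down-regulated, while 5.39% and 6.74% of all genes were. *Srsf5* (0.26) and *Rbm38* (-0.48) were past the threshold at equal depth, and *Rbm42* (-0.15, adjusted p = 0.0599 by edgeR) was not. Gene length was examined as well, since over 14929 genes the log2 fold change rose with the span of the gene on GRCr8 (Spearman's rho 0.36 across genes, which are not independent). Over the 70 regulators rho was -0.03. Their spans were short, with a median at percentile 34.9 of all genes, and at 19.0 for SR genes. With offsets that remove the trend with span, 9 regulators were up-regulated and 1 was down-regulated, while 3.40% and 6.79% of all genes were. *Srsf5* (0.30), *Hnrnpu* (0.23), *Hnrnpul2* (0.22), *Rbm3* (0.40), *Rbm27* (0.31) and *Rbm38* (-0.44) were past the threshold in that fit, and *Rbm42* (-0.10, adjusted p = 0.118 by edgeR) was not. The signs of the 7 genes were the same in every alternative run. A single control affected the number of calls most. Without control rat 2, 16 regulators were up-regulated and 3 down-regulated, while 10.1% and 11.2% of all genes were.

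Regulators also varied together between rats of the same group. Of the 2415 pairs of regulators, 97 (4.02%) had r above 0.8 over the 20 rats after each group was centred on its mean, and 0.726% of all gene pairs did. The shares were 10.9% of the 55 pairs within the SR family, 9.15% of the 153 pairs of hnRNP genes and 1.46% of the 820 pairs of RBM genes. The highest values were those of *Hnrnpa3* with *Rbm34* (0.949), *Srsf10* (0.936) and *Hnrnph1* (0.933). *Hnrnpa3* had 15 partners above 0.8, and *Hnrnpa2b1*, *Hnrnph1*, *Rbm34* and *Srsf3* had 14 each. *Rbm17* and *Rbm33* formed the most negative pair (-0.884), followed by *Rbm14* with *Srsf3* (-0.855). *Rbm8a*, whose protein Y14 is a core subunit of the exon junction complex, had 8 partners above 0.8, among them *Srsf3* (0.921). Of the genes past the threshold, *Srsf5* had 5 such partners and *Hnrnpu* had 1. The 5 genes with the most partners (*Hnrnpa3*, *Hnrnpa2b1*, *Hnrnph1*, *Rbm34* and *Srsf3*) had r between 0.816 and 0.906 with library size, and the part of library size in the covariation was not tested.

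**Figure D5:**
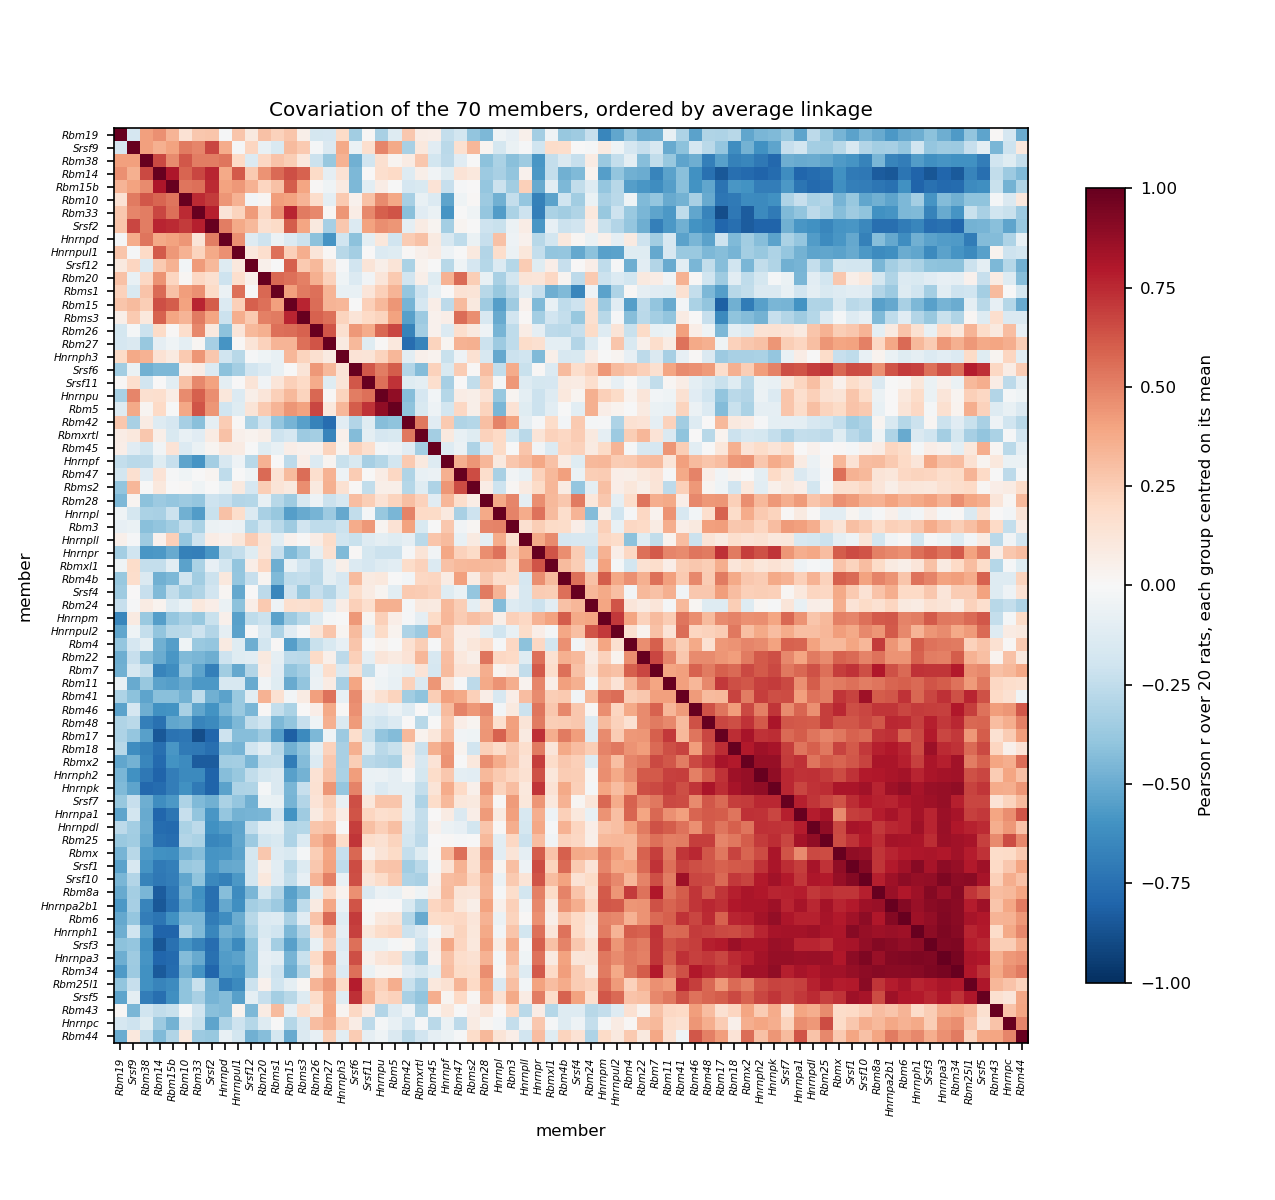
Pearson r between the log2 levels of each pair of the 70 regulators over 20 rats, each group centred on its mean, with both axes ordered by average linkage and colour from -1 (blue) to 1 (red). The red block at the lower right holds *Hnrnpa3*, *Rbm34*, *Srsf3*, *Hnrnpa2b1* and *Srsf10*. The rows of *Rbm14* and *Rbm33* are blue against these genes (with *Srsf3*, -0.855 for *Rbm14* and -0.665 for *Rbm33*).

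Genes that act with these regulators were examined through lists set by function, of which all 48 genes were tested and 9 were up-regulated (18.8%) and 6 down-regulated (12.5%), against 6.48% and 8.54% of all genes. Of 28 SR kinases and SR-related proteins, 7 were up-regulated (25%), among them *Pnn*, a partner of the exon junction complex, and the kinases *Srpk2* and *Prpf4b*, and *Rnps1* was down-regulated. The median log2 fold change of this list was 0.18, and its median span was at percentile 60.8 of all genes. With span offsets, *Pnn* (0.36) and *Prpf4b* (0.24) stayed past the threshold. *Srpk2* (0.09, adjusted p = 0.363 by edgeR) and *Rnps1* (-0.10, adjusted p = 0.151) did not. In that fit, 5 of the 48 genes were up-regulated and 4 down-regulated, while 3.40% and 6.79% of all genes were. *Pnn* was at 34.2, 40.9 and 47.5 RPM in the lowest, median and highest LSD-treated rat and at 29.9, 32.4 and 41.3 RPM in controls (log2 fold change 0.31, SE 0.072, adjusted p = 0.00942 by edgeR). Of 6 hnRNPs that go by other symbols, *Raly*, *Pcbp1* and *Pcbp2* were down-regulated and none was up-regulated. *Raly*, a relative of *Hnrnpc*, was at 133.0 to 164.3 RPM in LSD-treated rats and at 145.5 to 211.8 RPM in controls (log2 fold change -0.30, adjusted p = 0.00697 by edgeR), and all LSD-treated rats lay below the control median. The poly(C)-binding *Pcbp1* and *Pcbp2* had log2 fold changes of -0.30 and -0.17 (adjusted p = 0.0168 and 0.0222 by edgeR). With span offsets, *Raly* and *Pcbp2* stayed past the threshold and *Pcbp1* did not (-0.21, adjusted p = 0.0598 by edgeR).

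Of 10 factors of nonsense-mediated decay, *Smg1* was up-regulated and *Smg9* and *Upf3a* were down-regulated. *Smg1*, the kinase that phosphorylates UPF1, ranged from 75.8 to 112.8 RPM in LSD-treated rats and from 40.0 to 91.5 RPM in controls (log2 fold change 0.41, adjusted p = 0.0157 by edgeR). *Smg9*, a subunit of the same kinase complex, changed by -0.29 on the log2 scale (adjusted p = 0.0159 by edgeR), and *Upf3a* one of -0.26 (adjusted p = 0.0205). Among the 3 nuclear import receptors, *Tnpo1*, which carries hnRNP A1 into the nucleus, was up-regulated (log2 fold change 0.29, adjusted p = 0.0218 by edgeR) and all 10 LSD-treated rats exceeded the control median. With library size as a covariate, *Smg1* and the neuronal splicing regulator *Srrm4* were past the threshold among the 48. The median r of these lists with library size was -0.22, with 14 genes above 0.5 and 15 below -0.5.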

How the data were processed

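Poly(A)-selected RNA of the mPFC was sequenced from 10 LSD-treated and 10 control rats, and groups were taken from the sample labels. Reads were trimmed with TrimGalore, aligned to rn6 with Hisat2 and assigned to genes with HTSeq-count, and the authors deposited the raw counts without normalisation. Versions, gene annotation and strand setting are not given in the sources used here. Below 31038 genes the matrix has 5 rows with no name, which were taken to be the counters of HTSeq-count (25.46% to 28.96% of each rat's total), and they entered no step. Reads on genes numbered 11098076 to 25552681 per rat, and precision rests on the spread between rats. Genes that reached a minimum of 5 reads in 10 or more rats were retained (16605 of 31038).

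The 2 groups were compared by the quasi-likelihood test of edgeR 4.0.16 (R 4.3.3) with TMM factors, at a threshold of 0.05 for p-values adjusted after Benjamini-Hochberg over all 16605 genes. The test and its span offsets were tested on simulated data first. Alternatives were RLE size factors, total counts, DESeq2 1.42.0, other filters, the replicate number as a block, span offsets (50 bins, smoothed over 5), each rat left out, and, added after the data were seen, library size as a covariate and reads drawn to equal depth. RefSeq on GRCr8 gave spans, overlaps and promoters. Named genes are those past the threshold, the 3 of each family with most reads, and the 3 just inside the filter. The 3 with most reads outside the filter, a list of well-studied members and the 8 partners of smallest p were also named. Others named as near the threshold, in relation to library size or in covariation were chosen after their values were seen. The members and lists were chosen with earlier results of these data known.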

Additional observations from a re-analysis of the deposited data

Results flagged for a closer look

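Among the 60 groups of 10 rats examined for the regulators named, 2 held a rat far from the others, and chance marks about 1 group in 20. Both were the control group, in which rat 2 was the highest. For *Srsf5* it stood at 100.8 RPM, with the next control at 81.6 RPM, a gap of 0.597 of the whole range of the group, and for *Hnrnpa2b1* it stood at 129.7 RPM, with the next control at 97.9 RPM, a gap of 0.488. Rat 2 has the largest library of the control group, with 24201351 reads on genes, and the part of its library size in these values was not tested.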

How the results depend on the processing

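The count of regulators past the threshold depended on the processing. The 5 up-regulated became 10 under total counts (SR 2, hnRNP 5), 12 under DESeq2 (SR 3, hnRNP 5, RBM 4), 12 with at least 10 reads in every rat (SR 3, hnRNP 5, RBM 4), 9 with span offsets (SR 2, hnRNP 4), and 2 with the library size covariate (SR 0, hnRNP 1, RBM 1). In the same order, 9.06%, 8.18%, 9.1%, 3.4% and 3.22% of all genes were up-regulated, beside 6.48% in the main fit. The 2 down-regulated, both RBM, became 1 under total counts, without a low-count filter, with span offsets, and at equal depth, and 0 with the covariate, and under DESeq2 1 SR gene was down-regulated as well. In the same order, 5.17%, 3.32%, 6.79%, 6.74%, 3.85% and 10.5% of all genes were down-regulated, beside 8.54% in the main fit. With the replicate block 11 were up-regulated (SR 2, hnRNP 4, RBM 5) and 2 down-regulated. With span offsets and the block these counts were 14 (SR 3, hnRNP 7, RBM 4) and 1. As a background, the block alone called 8.16% of all genes higher and 9.67% lower after LSD. Span offsets and the block together called 4.51% higher and 8.03% lower. Replicate numbers were not taken as pairs, since not every pair correlated: same-numbered rats correlated at -0.259 to 0.467, over 0.1 in 6 of 10 pairs, with a mean of 0.145 against -0.0157 for rats of different numbers, and 3 of 20 rats correlated best with their own number.

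Leaving out 1 rat gave 5 to 16 up-regulated (SR 1 to 4, hnRNP 2 to 8, RBM 2 to 6) and 1 to 3 down-regulated (SR 0 to 1, RBM 1 to 2). Over all genes, 3.97% to 10.1% were up-regulated and 5.46% to 11.2% down-regulated in these fits. The up-regulated numbered 16 without control 2, 11 without LSD-treated rat 1, 10 without control 10, and 8 without LSD-treated rat 10 or control 7. In the same order, 10.1%, 7.68%, 8.62%, 6.17% and 6.59% of all genes were up-regulated. The down-regulated fell to 1 without LSD-treated rats 2, 4, 6, 7, 8 or 10 or controls 1, 4 or 5. *Rbm42* was the 1 gene of the 7 that lost its call in such fits.

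Signs reversed for genes that were not past the threshold. With the covariate the log2 fold change was -0.0166 for *Srsf1*, -0.0792 for *Srsf3*, 0.1135 for *Srsf2*, -0.1337 for *Hnrnpa1*, -0.0174 for *Hnrnpa2b1*, -0.1179 for *Hnrnph1*, -0.0067 for *Hnrnpk*, 0.0343 for *Rbm10*, 0.0415 for *Rbms1*, -0.1602 for *Rbm41* and -0.4264 for *Rbm46*. *Rbm10* was 0.0381 under total counts, 0.0076 without the filter, 0.0017 with at least 10 reads in every rat and -0.0233 to 0.0055 with 1 rat left out. *Srsf2* was 0.0175 under total counts, 0.0502 with span offsets and 0.0569 with the block added. *Rbms3* was -0.0623, -0.0613 with the block added and -0.0031 to 0.1215 with 1 rat left out, and *Rbm46* was -0.0187, -0.001 and -0.1416 to 0.1709. The causes were not tested. Depth limits *Rbm41*, *Rbm44* and *Rbm46* most.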
